A study of Mus musculus with 12 samples.

Results

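The results concern 10 genes of cellular iron handling in cells sorted from mouse fetal liver (FL), chosen by name among the 38127 genes counted. They are *Tfrc* and *Tfr2*, which encode the 2 transferrin receptors, *Trf* (transferrin), *Steap3* (the endosomal ferric reductase), *Slc11a2* (the divalent metal transporter DMT1), *Fth1* and *Ftl1* (ferritin heavy and light chains), *Slc40a1* (ferroportin, the iron exporter), *Hamp* (hepcidin), and *Ireb2* (iron regulatory protein 2). RNA was sequenced from 4 groups of C57BL/6 cells, all negative for Ter119 and CD45, with 3 libraries each from separate litters. P2 cells were the Kit+CD24+ cells of E14.5 FL and also lacked CD54 and CD31, and CD31+ cells were CD54+CD31+ endothelial cells of E14.5 FL. The cells called CD324+ in the study, also of E14.5 FL, carry the label CD54+CD31- and are rich in hepatoblasts. The last group was sorted as CD54+CD31- cells at E18.5. Each library holds RNA of many sorted cells, so fewer cells of a type and less RNA per cell cannot be told apart.

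Iron travels in plasma bound to transferrin, and most cells take it up when the transferrin receptor carries the complex into endosomes. There the ferric iron is released, reduced by Steap3, and moved into the cytosol by DMT1, after which ferritin stores what is not used and ferroportin exports it. Developing red cells are the largest users of this route because they make heme, whereas hepatocytes store iron and secrete transferrin and hepcidin, the hormone that removes ferroportin from cell surfaces.

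In iron-poor cells, iron regulatory proteins bind hairpins called iron-responsive elements in the untranslated regions of several of these mRNAs. A bound hairpin in the 5′ untranslated region holds back translation, and bound hairpins in the 3′ untranslated region of transferrin receptor mRNA protect it from decay. All coding transcripts of GENCODE vM21 (GRCm38) were searched for a bulged C, a stem of 5 paired bases (G-T pairs allowed), and the loop CAGTGN. Such hairpins were found in 4 of the 10 genes. They are shown, written as DNA from 5′ to 3′ with the loop in capitals, because hairpins of this form are the elements that iron regulatory proteins are known to bind.
Fth1, 5′ untranslated region, chr19:9982731-9982760, + strand: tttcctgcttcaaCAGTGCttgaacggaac
Ftl1, 5′ untranslated region, chr7:45459779-45459808, - strand: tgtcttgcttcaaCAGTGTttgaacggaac
Slc40a1, 5′ untranslated region, chr1:45925465-45925494, - strand: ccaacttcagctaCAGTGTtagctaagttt
Tfrc, 3′ untranslated region, chr16:32631218-32631247, + strand: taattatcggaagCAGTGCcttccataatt
Tfrc, 3′ untranslated region, chr16:32631597-32631626, + strand: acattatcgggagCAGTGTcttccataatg
Tfrc, 3′ untranslated region, chr16:32631662-32631691, + strand: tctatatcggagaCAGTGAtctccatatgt
Tfrc, 3′ untranslated region, chr16:32631709-32631738, + strand: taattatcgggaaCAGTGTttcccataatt

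The *Fth1* and *Ftl1* hairpins shared 27 of 30 bases, and the 4 *Tfrc* hairpins shared between 18 and 25 bases with each other. The same pattern occurred in the 5′ untranslated region of 31 of 21901 coding genes (0.142%) and in the 3′ untranslated region of 129 (0.589%). A match describes sequence and does not show binding. The lack of a match in the other genes says only that this pattern is not in the transcripts searched. Hairpins of another form were not searched for.

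Total counts ranged from 40714017 to 64368883 per library, and in each library 3 genes (*Cdk8*, *Zc3h7a*, and *Il1rapl1*) held between 10.8% and 23.1% of them. Levels are given in CPM (the share of a library's TMM-adjusted total), as mean ± SD over 3 libraries. For these levels TMM was run over the 9 libraries of E14.5 and, separately, over the 6 CD54+CD31- libraries of both ages. CPM at E18.5 are thus on the scale of the E14.5 values set beside them, not on that of P2 or CD31+ libraries. Tests are edgeR's quasi-likelihood tests over all genes with Benjamini-Hochberg adjustment (called at adjusted p below 0.05). Erythroid markers (12 genes, such as *Klf1*) summed to between 3016 and 3205 CPM in P2, between 451 and 714 in CD324+, and between 398 and 516 in CD31+ libraries. Hepatoblast markers (14 genes, such as *Alb*) summed to between 76498 and 86745 CPM in CD324+ libraries and to at most 1030 in the others of E14.5, and endothelial markers (11 genes) to between 9821 and 10284 CPM in CD31+ libraries and to at most 402 elsewhere at E14.5, the highest being P2 replicate 2. Scaling by the factors deposited by the authors in place of TMM shifted the median log2 fold change of all genes by -0.26 for P2 against CD324+, -0.37 for P2 against CD31+, 0.11 for CD31+ against CD324+, and 0.23 for E18.5 against E14.5. It also moved the share of higher calls from 48.3% to 38.2% in the first and from 46.6% to 33.9% in the second of these comparisons.

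Between P2 and CD324+ cells, the uptake genes *Tfrc*, *Steap3*, and *Slc11a2* were between 3.62-fold and 3.80-fold higher in P2 cells, *Fth1* was 1.38-fold higher, and *Ftl1*, *Tfr2*, *Slc40a1*, and *Hamp* were lower. Of the 10 genes, 9 passed the low count filter, and 4 rose, 4 fell, and 1 (*Ireb2*) was not called, where 33.8% of the 15461 genes tested were higher and 36.1% lower. Their median log2 fold change was 0.05, against -0.01 over all genes tested. Between P2 and CD31+ cells, 5 of the 9 were higher in P2 cells, none was lower, and 4 were not called, where 34.3% of all genes were higher and 39.4% lower (median 1.80 against -0.13). Between CD31+ and CD324+ cells, 8 of the 9 were lower in CD31+ cells and none was higher, where 31.7% of all genes were higher and 34% lower (median -1.18 against -0.03). The 3 comparisons share libraries and are not independent of each other.

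**Figure D1:**
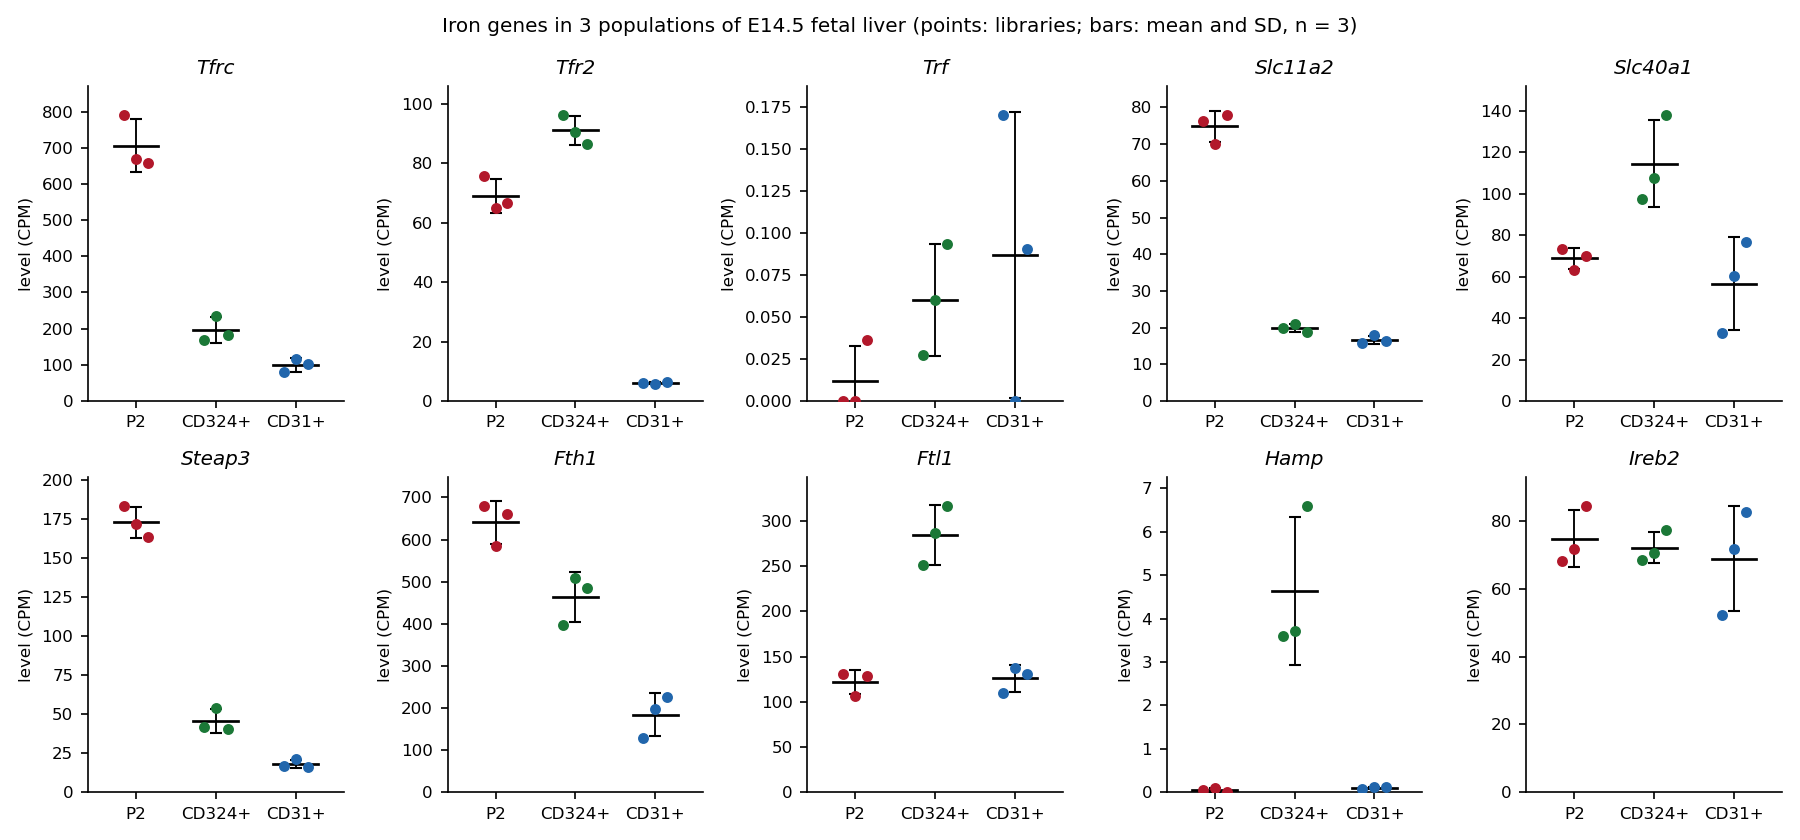
Levels (CPM, TMM-adjusted, linear axes from 0) of the 10 genes in P2, CD324+, and CD31+ libraries of E14.5 FL, with 1 point per library and the mean and SD as bars (n = 3). *Tfrc*, *Slc11a2*, and *Steap3* are highest in all P2 libraries, *Ftl1*, *Tfr2*, *Slc40a1*, and *Hamp* in all CD324+ libraries, and the *Ireb2* points overlap.

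*Tfrc* (ENSMUSG00000022797, chr16:32608920-32632794, + strand, 19 exons in its longest coding transcript) encodes transferrin receptor 1, known on cells as CD71. It had 792, 670, and 657 CPM in the P2 libraries, 169, 236, and 181 in the CD324+ libraries, and 79.8, 117, and 103 in the CD31+ libraries. The lowest P2 library was above every other library, and the CD324+ libraries did not overlap the CD31+ libraries. The log2 fold change was 1.85 (SE 0.17, adjusted p = 3.35e-06) for P2 against CD324+, 2.83 (SE 0.17, adjusted p = 2.55e-07) for P2 against CD31+, and -0.97 (SE 0.16, adjusted p = 0.000433) for CD31+ against CD324+. The order P2, CD324+, CD31+ was thus separated by the test at each step. The paper describes CD71 protein as limited to the CD24+ progenitors, P2 among them, and treats CD71 and CD24 as redundant markers there. P2 cells were sorted by CD24, so the high *Tfrc* level in them is not independent of the sort.

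*Steap3* (ENSMUSG00000026389, chr1:120190757-120272705, - strand) followed the same order. It had 183, 172, and 164 CPM in P2 libraries, 41.9, 54.3, and 40.5 in CD324+ libraries, and 17.2, 21.2, and 16.5 in CD31+ libraries, with no overlap between groups. It was 3.80-fold higher in P2 than in CD324+ cells (log2 1.93, SE 0.14, adjusted p = 5.61e-07) and 9.46-fold higher than in CD31+ cells (log2 3.24, SE 0.15, adjusted p = 5.06e-08). CD31+ cells were also below CD324+ cells (log2 -1.32, SE 0.14, adjusted p = 1.17e-05).

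*Slc11a2* (ENSMUSG00000023030, chr15:100387898-100425072, - strand), which encodes the transporter that moves reduced iron out of endosomes, had 76.3, 70.2, and 78.0 CPM in P2, 20.0, 21.0, and 18.9 in CD324+, and 15.8, 17.9, and 16.5 in CD31+ libraries. The P2 libraries stood far above both other groups, which lay close together without overlapping. The log2 fold change was 1.91 (SE 0.090, adjusted p = 2.47e-08) against CD324+ and 2.16 (SE 0.091, adjusted p = 3.97e-08) against CD31+. The difference between CD31+ and CD324+ cells was small (log2 -0.26, SE 0.088, adjusted p = 0.0263) and was not called without CD31+ replicate 1 (adjusted p = 0.0814), with the authors' factors (0.111), by DESeq2 (0.0608), or with the 6 libraries alone (0.0950).

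The levels of these uptake genes outside P2 cells came with erythroid transcripts in the same libraries. The 12 erythroid markers, all of them with counts in every group, summed to between 14.5% and 23.0% of the P2 mean in CD324+ libraries and to between 12.8% and 16.6% in CD31+ libraries. *Tfrc* reached between 23.9% and 33.4% of its P2 mean in CD324+ and between 11.3% and 16.5% in CD31+ libraries, *Slc11a2* between 25.2% and 28.0% and between 21.1% and 23.9%, and *Steap3* between 23.4% and 31.4% and between 9.53% and 12.3%. CD324+ replicate 2 had the highest value of its group for the markers, *Tfrc*, and *Steap3*. For *Slc11a2* it was highest by a small margin only (21.0 against 20.0 and 18.9 CPM). The part of the erythroid transcripts in these levels was not tested.

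**Figure D2:**
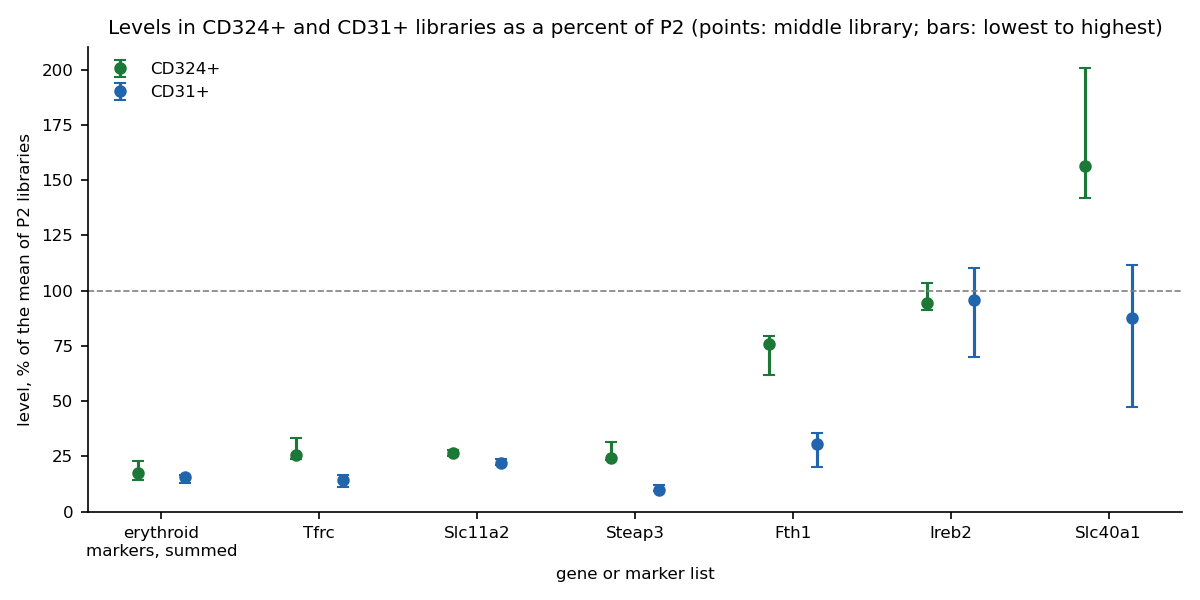
Level in CD324+ and CD31+ libraries as a percent of the mean of the P2 libraries (dashed line at 100%), for the summed erythroid markers and 6 iron genes, with the middle library as a point and the lowest and highest as bars (n = 3). In CD324+ libraries *Tfrc*, *Slc11a2*, and *Steap3* lie between 23.4% and 33.4%, above the erythroid markers (14.5% to 23.0%). In CD31+ libraries *Slc11a2* lies above the markers, *Steap3* lies below them, and *Tfrc* overlaps them. *Fth1* in CD324+ libraries lies between 61.8% and 79.6%, and *Slc40a1* at up to 201%.

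*Tfr2* (ENSMUSG00000029716, chr5:137569840-137587481, + strand) encodes transferrin receptor 2, which binds transferrin with lower affinity and is known from hepatocytes, where it takes part in hepcidin control, and from erythroid precursors. It had 75.6, 64.99, and 66.5 CPM in P2, 96.4, 90.4, and 86.6 in CD324+, and 6.00, 5.78, and 6.25 in CD31+ libraries. CD31+ libraries were far below both other groups, and P2 libraries were below CD324+ libraries without overlap. *Tfr2* was 11.5-fold higher in P2 than in CD31+ cells (log2 3.52, SE 0.098, adjusted p = 1.80e-08) and 1.32-fold lower in P2 than in CD324+ cells (log2 -0.40, SE 0.088, adjusted p = 0.00200). The latter call was lost with all 12 libraries in 1 fit (adjusted p = 0.563). Hepatoblast markers in the P2 libraries summed to between 0.867% and 0.883% of their CD324+ mean, and *Tfr2* stood at between 71.3% and 82.9% of its own. The part of hepatoblast transcripts in the P2 level was not tested.

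The 2 transferrin receptor genes therefore moved unequally. The ratio of *Tfrc* to *Tfr2* counts within a library was 10.5, 10.3, and 9.89 in P2 cells, 1.75, 2.61, and 2.09 in CD324+ cells, and 13.3, 20.2, and 16.4 in CD31+ cells. No 2 of these groups overlapped. With 3 libraries against 3, the exact permutation test (two-sided) cannot go below p = 0.1, which it gave for each pair of these groups (0.133 after Benjamini-Hochberg adjustment over 12 ratio tests).

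*Fth1* (ENSMUSG00000024661, chr19:9980598-9985098, + strand) encodes the ferritin heavy chain, which oxidizes iron as it enters the shell. It had 679, 584, and 660 CPM in P2, 396, 510, and 485 in CD324+, and 128, 197, and 227 in CD31+ libraries, again in the order P2, CD324+, CD31+ without overlap. The difference between P2 and CD31+ cells was 3.48-fold (log2 1.80, SE 0.19, adjusted p = 1.11e-05) and that between CD31+ and CD324+ cells log2 -1.33 (SE 0.19, adjusted p = 0.000125). Between P2 and CD324+ cells it was log2 0.47 (SE 0.19, adjusted p = 0.0454), a call that was lost when any of the CD324+ libraries or P2 replicate 1 or 3 was left out (adjusted p from 0.0536 to 0.135), with the authors' factors (0.318), and with at least 10 counts required in every library (0.0884).

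*Ftl1* (ENSMUSG00000050708, chr7:45457944-45459884, - strand) encodes the light chain, which helps the iron core form. It had 131, 106, and 129 CPM in P2, 250.5, 286, and 316 in CD324+, and 109, 137, and 130.3 in CD31+ libraries. All CD324+ libraries were above all others, and the P2 and CD31+ libraries overlapped. *Ftl1* was 2.33-fold lower in P2 than in CD324+ cells (log2 -1.22, SE 0.13, adjusted p = 9.64e-06) and 2.26-fold lower in CD31+ than in CD324+ cells (log2 -1.18, SE 0.13, adjusted p = 1.58e-05). P2 and CD31+ cells did not differ by the test (log2 -0.04, SE 0.13, adjusted p = 0.762), but with the authors' factors *Ftl1* was called lower in P2 cells (log2 -0.42, adjusted p = 0.00457). Of the longest *Ftl1* transcript, 36.7% of the bases also lie in *Gm10252* on the other strand, which had at most 0.380 CPM at E14.5, and 11.3% in the microRNA gene *Gm22133* on the same strand. The 5 ferritin pseudogenes listed had at most 5 counts in any library, with 18 counts over 12 libraries for *Ftl1-ps2*, 2 for *Fth-ps3*, and 1 for *Ftl1-ps1*.

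The heavy and light ferritin chains thus had different patterns, and the ratio of their counts within a library does not depend on the scaling. *Fth1* counts were 5.19, 5.49, and 5.13 times the *Ftl1* counts in P2 libraries, 1.58, 1.78, and 1.54 times in CD324+ libraries, and 1.17, 1.43, and 1.74 times in CD31+ libraries. The P2 ratios lay above all others, and those of CD324+ and CD31+ cells overlapped. The exact permutation test (two-sided, n = 3 against 3) gave p = 0.1, the smallest it can give, for P2 against either group (0.133 adjusted) and p = 0.4 for CD31+ against CD324+ cells (0.436 adjusted). The ratio of *Tfrc* to *Fth1* counts, uptake against storage, was 1.17, 1.15, and 0.996 in P2, 0.426, 0.463, and 0.374 in CD324+, and 0.622, 0.591, and 0.452 in CD31+ libraries. The P2 values were highest, and the CD324+ and CD31+ values overlapped (exact permutation test, p = 0.2, 0.240 adjusted).

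**Figure D3:**
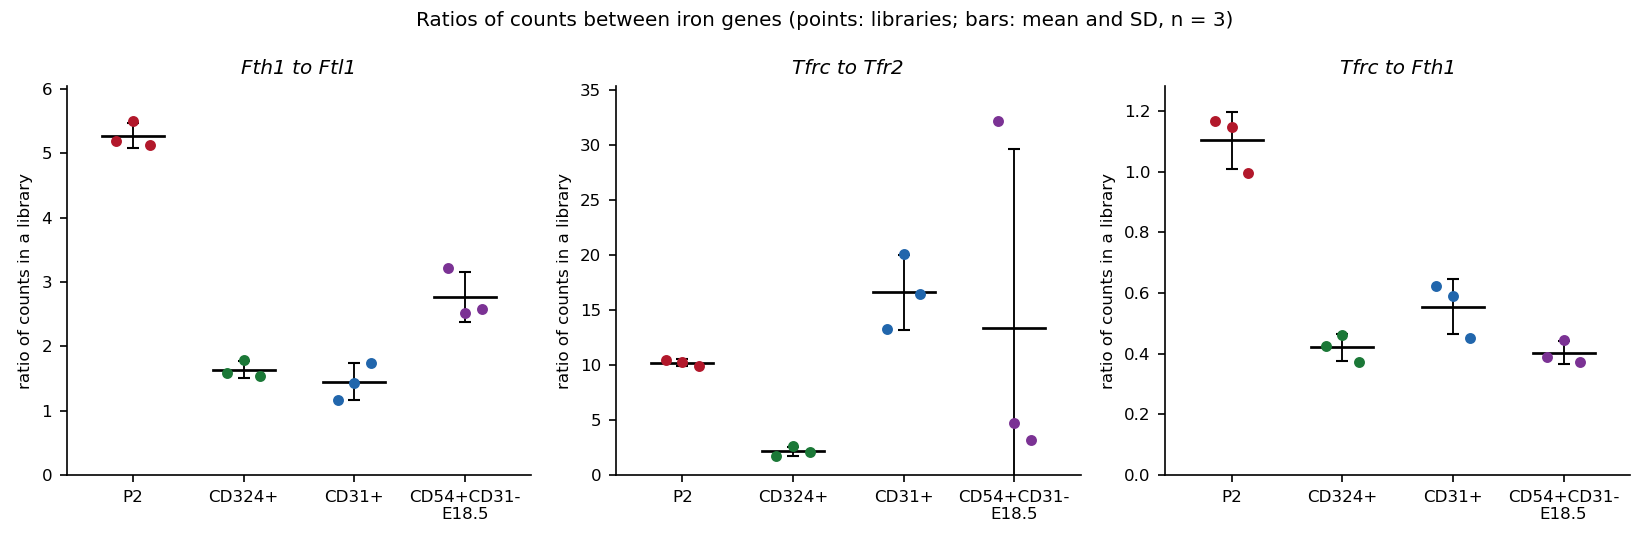
Ratio of the counts of *Fth1* to *Ftl1*, *Tfrc* to *Tfr2*, and *Tfrc* to *Fth1* within each library of the 4 groups, with 1 point per library and the mean and SD as bars (n = 3; the lower SD bar of the E18.5 group in the middle panel is cut at 0). *Fth1* to *Ftl1* is between 5.13 and 5.49 in P2 libraries and at most 3.22 elsewhere, and 1 E18.5 library reaches 32.2 for *Tfrc* to *Tfr2*.

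*Slc40a1* (ENSMUSG00000025993, chr1:45908068-45926523, - strand) encodes ferroportin, which is known from hepatocytes, macrophages, and also erythroid cells. It had 73.5, 63.3, and 69.9 CPM in P2, 97.7, 108, and 138 in CD324+, and 32.6, 60.3, and 76.8 in CD31+ libraries. CD324+ libraries were above all others, and the P2 libraries lay within the range of the CD31+ libraries. The log2 fold change was -1.02 (SE 0.26, adjusted p = 0.00566) for CD31+ against CD324+ and -0.73 (SE 0.26, adjusted p = 0.0263) for P2 against CD324+. The latter call was lost without P2 replicate 2 (adjusted p = 0.0532) or 3 (0.0604) and without CD324+ replicate 3 (0.102), and both were lost with all 12 libraries in 1 fit (0.181 and 0.0720). P2 and CD31+ cells were not separated (log2 0.28, SE 0.26, adjusted p = 0.338), except without CD31+ replicate 3 (log2 0.63, adjusted p = 0.0421).

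Macrophage markers (12 genes, all with counts in every group) were read beside ferroportin. They summed to between 16.1 and 64.8 CPM in P2, between 201 and 330 in CD324+, and between 1307 and 1577 in CD31+ libraries, of which *Mrc1*, which liver sinusoidal endothelium also expresses, made up 1341 ± 101 CPM in CD31+ cells. Without *Mrc1*, the sums were between 8.25 and 14.1 CPM in P2, between 183 and 295 in CD324+, and between 69.1 and 137 in CD31+ libraries. CD324+ replicate 3 had the highest sum of its group and also the highest *Slc40a1*. In P2 libraries *Slc40a1* stood at between 63.3 and 73.5 CPM with *Csf1r*, the macrophage growth factor receptor, at 1.201 ± 0.0571 CPM, against 43.5 ± 12.7 in CD324+ libraries. The part of macrophage transcripts in the CD324+ and CD31+ levels was not tested.

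*Hamp* (ENSMUSG00000050440, chr7:30942368-30944032, - strand) encodes hepcidin. It had 132, 124, and 282 counts in the CD324+ libraries, 3, 5, and 1 in the P2 libraries, and 5, 7, and 8 in the CD31+ libraries. In CPM the CD324+ libraries were at 3.59, 3.71, and 6.59, and every other E14.5 library at 0.120 or less. Summed over libraries, the *Hamp* rate in P2 cells was 1.24% of that in CD324+ cells (95% exact interval 0.563% to 2.37%), and in CD31+ cells 2.28% (1.38% to 3.55%), intervals that cover counting error only. Both groups were called lower than CD324+ cells (adjusted p = 1.26e-06 and 2.32e-06) and were not separated from each other (adjusted p = 0.226). For comparison, the 14 hepatoblast markers in P2 libraries summed to at most 0.883% and in CD31+ libraries to between 1.09% and 1.24% of their CD324+ mean.

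*Ireb2* (ENSMUSG00000032293, chr9:54863789-54912530, + strand) encodes the iron regulatory protein that is degraded when iron is plentiful, so that its mRNA level is known to say little of its activity. It had 68.2, 71.8, and 84.3 CPM in P2, 68.3, 70.6, and 77.2 in CD324+, and 52.3, 71.7, and 82.6 in CD31+ libraries. The 3 groups overlapped. None of the 3 comparisons was called (log2 0.05, 0.12, and -0.07, each with SE 0.15; adjusted p = 0.774, 0.506, and 0.727), which does not show that the levels were equal.

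*Trf* (ENSMUSG00000032554, chr9:103204001-103230444, - strand), the transferrin gene and a main product of hepatocytes, had between 0 and 10 counts in each E14.5 library and was removed by the low count filter. The CD324+ libraries held 1, 2, and 4 counts, whereas *Alb* stood at 42598 ± 2817 CPM in them. In the annotation, 82.0% of the longest coding *Trf* transcript lies in exons of *Gm20425* on the same strand, a gene whose own counts were between 0 and 6 in the E14.5 libraries. Reads in exons of more than 1 gene can be left uncounted by a gene counter, and whether they were is not given in the sources used here, so these counts were not read as the level of transferrin mRNA. Over all annotated *Trf* exons, 63.5% of bases lie in a gene on the same strand and the remainder does not.

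Levels of different genes were compared per kilobase of annotated exon. In P2 cells *Fth1* was highest (185 ± 14.5 CPM per kilobase), followed by *Tfrc* (114 ± 12.03), *Ftl1* (91.0 ± 10.1), *Steap3* (30.3 ± 1.74), *Tfr2* (15.9 ± 1.32), and *Slc11a2* (11.8 ± 0.652). In CD324+ cells *Ftl1* (212 ± 24.5) came before *Fth1* (134 ± 17.2) and *Tfrc* (31.6 ± 5.79), and in CD31+ cells *Ftl1* (93.8 ± 10.9) before *Fth1* (53.1 ± 14.6) and *Tfrc* (16.1 ± 3.00). In CD324+ cells the order of the ferritin chains rests on the length used, since per kilobase of the longest coding transcript *Fth1* had 310 and *Ftl1* 294 CPM. In P2 cells *Fth1* came first by both lengths. In CD31+ cells *Ftl1* came first by both, but only narrowly per kilobase of the longest coding transcript (130 against 123 CPM).

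**Figure D4:**
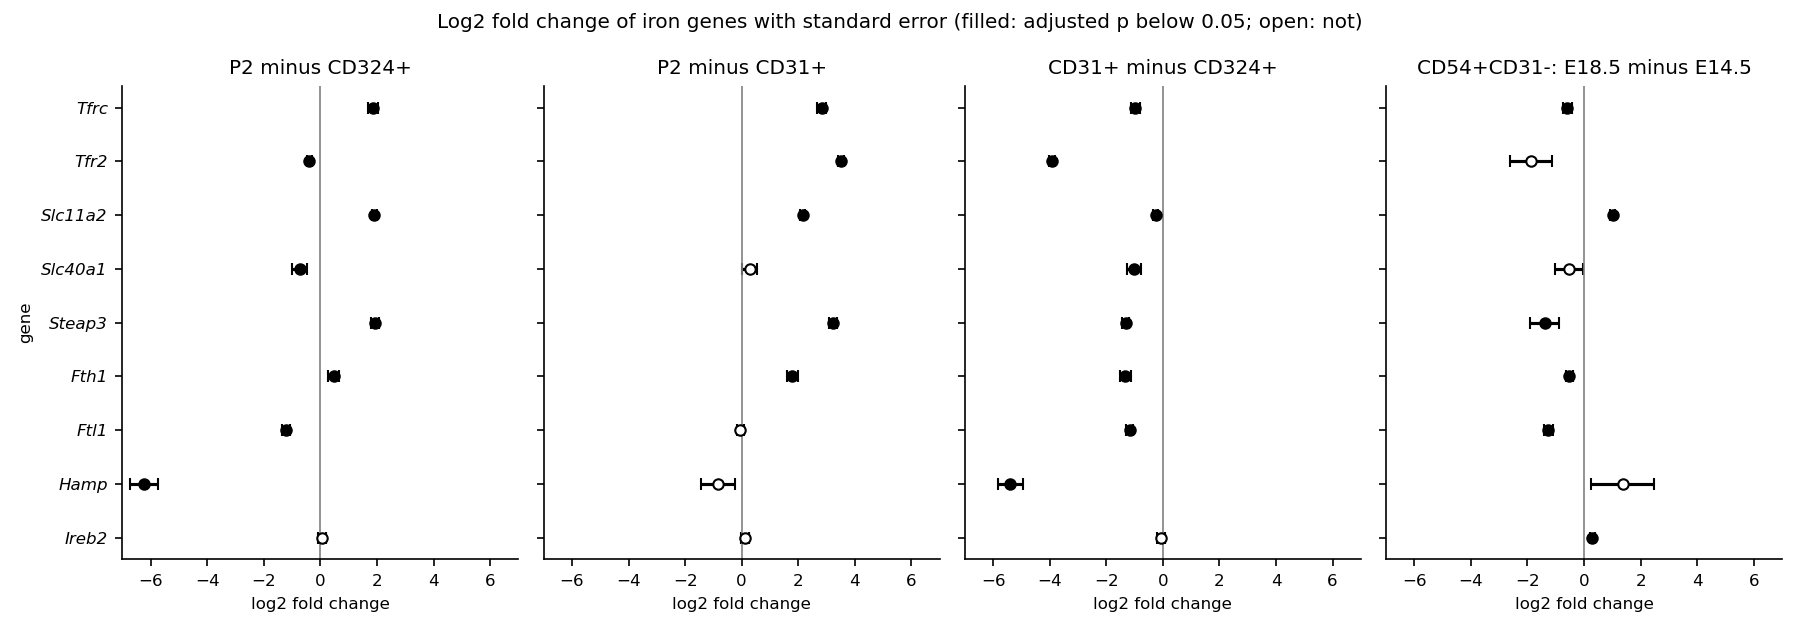
Log2 fold change with its standard error from edgeR's quasi-likelihood test for the 9 genes tested, in 4 comparisons (filled points: adjusted p below 0.05; open points: not called). Most points lie right of 0 for P2 minus CD31+ and left of 0 for CD31+ minus CD324+, and the points of *Hamp*, from counts of 8 or fewer in P2 and CD31+ libraries, depend on the prior count of the fit.

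At E18.5, the CD54+CD31- libraries differed from those of E14.5 in more than age. All 12 lung epithelium markers were higher, with sums of 24986, 11224, and 11343 CPM in replicates 1 to 3 against at most 27.7 at E14.5. All 8 mesenchymal markers (3994 to 4558 against at most 212 CPM) and all 11 endothelial markers (220 to 278 against at most 63.5 CPM) were higher as well. Hepatoblast markers summed to 7069, 46769, and 61024 CPM at E18.5 against at least 73585 at E14.5, and erythroid markers to 46.8, 217, and 187 against at least 434 CPM. Replicate 1 at E18.5 thus stood apart, and the fold changes at E18.5 are given with and without it. The part of these other cells in the results was not tested, and age and the mixture of cells cannot be told apart. Of the 9 genes tested, 2 were higher and 4 lower at E18.5, where 35.9% of the 15863 genes tested were higher and 33.5% lower (median log2 fold change -0.54 against 0.03 over all genes). Without replicate 1, 3 were higher and 5 lower. With any of the other 5 libraries left out, 1 was higher and between 3 and 5 were lower, and with the authors' factors 2 were higher and 1 was lower.

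**Figure D5:**
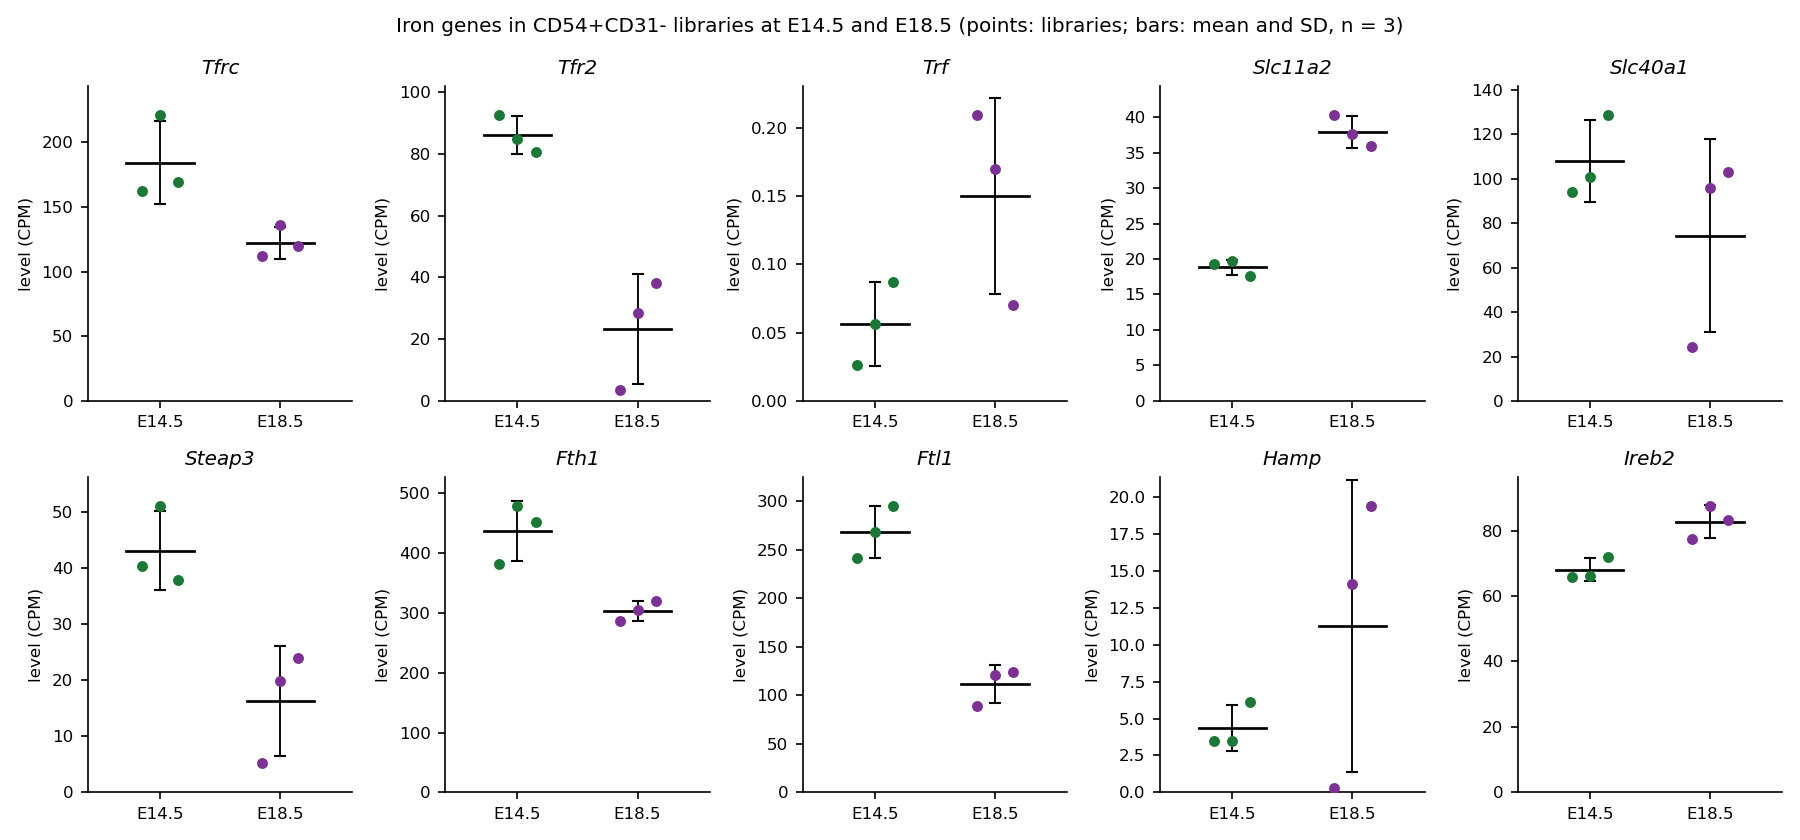
Levels (CPM, TMM-adjusted over 6 libraries, linear axes from 0) of the 10 genes in CD54+CD31- libraries at E14.5 and E18.5, with 1 point per library and the mean and SD as bars (n = 3). *Slc11a2* and *Ireb2* are higher and *Tfrc*, *Fth1*, and *Ftl1* lower in each E18.5 library, whereas in *Tfr2*, *Slc40a1*, *Steap3*, and *Hamp* 1 E18.5 library lies far below the other two.

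*Slc11a2* showed the clearest rise. It had 40.4, 37.6, and 35.9 CPM at E18.5 and 19.2, 19.7, and 17.6 at E14.5, 2.01-fold higher without overlap (log2 1.01, SE 0.093, adjusted p = 0.000120; without replicate 1, log2 0.96, adjusted p = 2.19e-05). *Ireb2* had 77.4, 87.4, and 83.1 against 65.7, 66.2, and 72.0 CPM, a 1.22-fold difference (log2 0.28, SE 0.089, adjusted p = 0.0262; without replicate 1, log2 0.32, adjusted p = 0.00563). This small difference was not called with any of the E14.5 libraries or E18.5 replicate 2 or 3 left out (adjusted p from 0.0669 to 0.130), with the replicate number as a block (0.0551), or with all 12 libraries in 1 fit (0.584).

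Both ferritin chains and *Tfrc* were lower at E18.5. *Ftl1* had 88.9, 121, and 124 CPM against 241, 268, and 295, so that all E18.5 libraries were below all E14.5 libraries (log2 -1.27, SE 0.16, adjusted p = 0.000484; without replicate 1, log2 -1.13, adjusted p = 1.60e-05). *Fth1* had 286, 305, and 320 against 381, 478, and 453 CPM (log2 -0.53, SE 0.13, adjusted p = 0.00906; without replicate 1, log2 -0.49, adjusted p = 0.00484), a call lost with the authors' factors (0.0837). *Tfrc* had 112, 136, and 120 against 162, 221, and 169 CPM (log2 -0.59, SE 0.15, adjusted p = 0.0114; without replicate 1, log2 -0.53, adjusted p = 0.00852), also lost with the authors' factors (0.0569). The count ratio of *Fth1* to *Ftl1* was 3.22, 2.52, and 2.57 at E18.5, each above every CD324+ library of E14.5 (exact permutation test, two-sided, p = 0.1, the smallest possible, 0.133 adjusted). The ratio of *Tfrc* to *Fth1* overlapped between the ages (0.390, 0.446, and 0.374 at E18.5; p = 0.8 by the same exact test).

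In the remaining genes replicate 1 decided the spread. *Hamp* had 0.274, 14.1, and 19.4 CPM at E18.5 (17, 1082, and 1381 counts) against 3.45, 3.48, and 6.14 at E14.5, which was not called (log2 1.37, SE 1.114, adjusted p = 0.307) and was called higher without replicate 1 (log2 1.93, SE 0.26, adjusted p = 0.000165). *Tfr2* had 3.47, 28.5, and 38.1 against 92.7, 84.8, and 80.7 CPM, below in each library but with adjusted p = 0.0559 (log2 -1.88, SE 0.73). It was called lower without E18.5 replicate 1 (log2 -1.37, SE 0.13, adjusted p = 2.00e-05) or replicate 3 (log2 -2.43, adjusted p = 0.0429), by DESeq2 (0.0101), and with all 12 libraries in 1 fit (0.00770).

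*Steap3* had 5.23, 19.9, and 23.9 against 40.3, 51.0, and 37.8 CPM (log2 -1.40, SE 0.51, adjusted p = 0.0441), lower in each E18.5 library. Without replicate 1 the difference was log2 -0.98 (SE 0.15, adjusted p = 0.000342). The call was lost without E18.5 replicate 2 or any E14.5 library (adjusted p from 0.0725 to 0.115), as well as with the authors' factors (0.0699), a minimum of 10 counts (0.0609), or the most abundant genes left out (0.0551). *Slc40a1* had 24.3, 95.9, and 103 against 94.0, 101, and 129 CPM, overlapping and not called with replicate 1 (log2 -0.54, SE 0.50, adjusted p = 0.363) or without it (log2 -0.12, SE 0.13, adjusted p = 0.421). Macrophage markers summed to 631, 439, and 434 CPM in these E18.5 libraries, highest in replicate 1, against 193 to 308 at E14.5. Only 2 of the 12 markers were called higher, and their median log2 fold change was -0.30. Unlike the sum, *Csf1r* was lowest in replicate 1, at 15.3, 44.9, and 45.3 CPM at E18.5 against 31.2, 38.0, and 53.5 at E14.5. The part of macrophage transcripts in the *Slc40a1* levels at E18.5 was not tested. *Trf* stayed between 5 and 13 counts per library.

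Further genes of iron metabolism, from 5 lists, were read beside the 10. Among 19 genes of iron-sulfur cluster assembly, *Abcb10* and *Fdx1l* were listed at 0 in every library, although both are used widely by cells. Of the 17 tested, 11 were higher and 2 lower in P2 than in CD324+ cells, where 33.8% of all genes were higher and 36.1% lower (median log2 fold change 0.55, against -0.01 over all genes). In P2 against CD31+ cells 15 were higher and none lower (all genes: 34.3% and 39.4%; median 1.06 against -0.13), and in CD31+ against CD324+ cells 2 were higher and 14 lower (31.7% and 34%; median -0.77 against -0.03). *Glrx5*, which passes on new iron-sulfur clusters, had 161 ± 12.7, 68.3 ± 11.5, and 32.0 ± 6.42 CPM in P2, CD324+, and CD31+ cells (P2 against CD324+, log2 1.24, adjusted p = 4.88e-05), the order of *Tfrc* and *Steap3*. *Fdxr* (ferredoxin reductase), also used in steroid synthesis, was instead highest in CD324+ cells at 57.0 ± 3.94 CPM against 11.8 ± 1.21 in P2 cells (log2 -2.27, adjusted p = 4.83e-08). At E18.5, 2 of the 17 were higher and 14 lower than at E14.5 (15 lower without replicate 1; all genes: 35.9% and 33.5%), among them *Glrx5* at 15.0 ± 2.55 against 64.4 ± 10.3 CPM (log2 -2.10, adjusted p = 8.24e-05; without replicate 1, log2 -1.98, adjusted p = 3.55e-06).

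Of 18 iron transport genes beside the members, 17 were tested at E14.5. In P2 against CD324+ cells 4 were higher and 11 lower, where 33.8% of all genes were higher and 36.1% lower (median log2 fold change -4.06, against -0.01 over all genes). *Slc39a8*, a metal importer, was at 195 ± 14.3 CPM in P2 and 73.4 ± 8.11 in CD324+ cells (log2 1.41, adjusted p = 9.36e-07), and ceruloplasmin (*Cp*), the plasma ferroxidase that works with ferroportin, was at 0.866 ± 0.169 and 71.8 ± 5.94 (log2 -6.38, adjusted p = 1.09e-08). *Heph*, the membrane-bound ferroxidase, was highest in CD31+ cells at 73.1 ± 3.16 CPM, against 1.62 ± 1.37 in P2 and 1.66 ± 0.729 in CD324+ cells (CD31+ against CD324+, log2 5.46, adjusted p = 4.67e-06). Against CD324+ cells, CD31+ cells had 5 of these genes higher and 10 lower (all genes: 31.7% and 34%), and against CD31+ cells, P2 cells had 1 higher and 11 lower (34.3% and 39.4%). At E18.5, 8 were higher and 6 lower (also without replicate 1, with all 18 tested; all genes: 35.9% and 33.5%), including *Lcn2*, a siderophore binder, at 48.4 ± 24.3 against 9.20 ± 0.938 CPM (log2 2.39, adjusted p = 0.000878; without replicate 1, log2 1.90, adjusted p = 1.27e-06).

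A list of 18 systemic iron regulators held genes of the hepcidin pathway together with the iron sensors *Aco1* and *Fbxl5*. All 18 were tested, of which 3 were higher and 15 lower in P2 than in CD324+ cells (all genes: 33.8% higher, 36.1% lower), and 6 were higher and 7 lower in CD31+ than in CD324+ cells (31.7% and 34%). *Hfe2* (hemojuvelin, a co-receptor for bone morphogenetic proteins) and *Tmprss6* (the protease that cleaves it) were at 41.2 ± 2.20 and 113 ± 3.52 CPM in CD324+ cells and at most at 0.513 ± 0.0806 and 4.11 ± 1.59 in the other groups of E14.5. The ligands *Bmp2* and *Bmp6*, which induce hepcidin, were highest in CD31+ cells at 196 ± 7.89 and 82.3 ± 8.03 CPM, against 1.38 ± 0.687 and 0.572 ± 0.170 in CD324+ cells (log2 7.14 and 7.17, adjusted p = 1.68e-05 and 2.13e-06). *Fam132b* (erythroferrone, an erythroid suppressor of hepcidin) was at 4.45 ± 0.956 CPM in P2 and 2.76 ± 0.378 in CD324+ cells (log2 0.69, adjusted p = 0.0375), a call lost when any CD324+ library or P2 replicate 1 was left out (adjusted p from 0.0586 to 0.166), with the authors' factors (0.189), with at least 10 counts required (0.0560), and with all 12 libraries in 1 fit (0.0555), and at 1.18 ± 0.356 in CD31+ cells (P2 against CD31+, log2 1.92, adjusted p = 8.94e-05). In P2 against CD31+ cells 2 of the 18 were higher and 15 lower (all genes: 34.3% and 39.4%). Without P2 replicate 2, the library with the most endothelial transcripts, 1 of these genes was higher in P2 than in either other group, with 15 lower in both. At E18.5, 10 were higher and 3 lower (6 lower without replicate 1; all genes: 35.9% and 33.5%).

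Among iron chaperones and ferritin turnover, *Ftmt* was listed at 0 in every library and 4 genes were tested. In P2 against CD324+ cells 3 were higher and 1 was lower (all genes: 33.8% and 36.1%). *Pcbp1*, which delivers iron to ferritin, was at 357 ± 9.01 CPM in P2, 281 ± 10.3 in CD324+, and 237 ± 23.3 in CD31+ cells (P2 against CD324+, log2 0.35, adjusted p = 0.00538, lost with the authors' factors at 0.418). *Ncoa4*, the receptor that takes ferritin to lysosomes, was highest in CD324+ cells at 16.6 ± 1.54 CPM, against 10.1 ± 0.743 in P2 (log2 -0.71, adjusted p = 0.0136, lost with all 12 libraries in 1 fit at 0.0525) and 8.73 ± 2.84 in CD31+ cells (log2 -0.93, adjusted p = 0.00368). In P2 against CD31+ cells 2 were higher and 1 lower (all genes: 34.3% and 39.4%). In CD31+ against CD324+ cells 1 was higher and 3 lower (all genes: 31.7% and 34%). At E18.5 none was higher and 2 were lower, with or without replicate 1 (all genes: 35.9% and 33.5%). *Pcbp1* was among the lower at 114 ± 6.76 against 265 ± 8.56 CPM (log2 -1.21, adjusted p = 6.65e-05; without replicate 1, log2 -1.22, adjusted p = 4.44e-06).

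The genes whose log2(CPM + 1) followed each member most closely over the 12 libraries were sought among 10779 genes. For *Tfrc* they were *Cercam*, *Piga*, and *Capn1* (Pearson's r = 0.994, 0.991, and 0.989), for *Steap3* the heme synthesis gene *Cpox* (0.993), *Cisd1* (0.990), and *Sfxn1* (0.989), and for *Slc11a2* *Adamts3*, *Rfx2*, and *Cabin1* (0.989, 0.988, and 0.986). For *Fth1* they were *Scrn3*, *Thap6*, and *Ube2j1* (0.989, 0.987, and 0.987), and for *Ftl1* *Sh3bgrl*, *Hsd17b12*, and *Zfp568* (0.985, 0.984, and 0.977). *Hamp* was followed by the hepatocyte transporter gene *Slco1b2* (0.988), *Gm4952* (0.986), and *Cyp3a11* (0.974), and *Tfr2* by *Angptl4*, *Gm4737*, and *Ahcy* (0.984, 0.982, and 0.981). *Slc40a1* was closest to *Hadhb* (0.936), *Pde3b* (0.906), and *Ncoa4* (0.894), and *Ireb2* to *Atf2* (0.940) and *Nufip2* (0.898). These are descriptions over 12 libraries in 4 groups that share groups and are given without a test.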

How the data were processed

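RNA from 12 libraries of sorted C57BL/6 fetal liver cells (3 per group) was sequenced as single reads after enzymatic removal of ribosomal RNA. The authors aligned reads with STAR 2.5.0a to GRCm38 after trimming with cutadapt 1.11 and counted them per gene with featureCounts 1.4.6-p3. The strand setting, the treatment of reads with several alignments, and the annotation release are not given in the sources used here. The authors deposited whole-number counts and a rounded score, equal to the count scaled by a single factor for its library, from which only that factor was read.

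Counts were tested in R 4.3.3 with edgeR 4.0.16 (TMM, filterByExpr, quasi-likelihood test, Benjamini-Hochberg over all genes, adjusted p below 0.05) without a replicate block. One fit held the 9 libraries of E14.5, and a second fit, with its own TMM scale, the 6 libraries of CD54+CD31- cells of both ages. Alternatives were DESeq2's size factors and test (DESeq2 1.42.0), the authors' factors, other filters, the block, other sets of libraries, removal of genes above 1% of a library, and omission of single libraries. The tests were tried on simulated counts. Replicate pairs differed by far more than sampling noise, so none was taken for a duplicate.

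The members and lists were chosen with earlier results of these data known. All 10 members are named. From each list, named genes come from the 2 largest called changes per comparison and direction without overlap between libraries and with at least 1 CPM in the higher group. For each member tested, the 3 genes with the highest r and at least 5 CPM are named, except 1 that is not reported here. Depth is high enough that the number of libraries, 3 per group, limits the precision, except for *Trf* and *Hamp*.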

Additional observations from a re-analysis of the deposited data

How the results depend on the processing

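Calls among the members kept their direction under every alternative tried. Their log2 fold changes stayed on the same side of the threshold and of 0 in 474 refits, lost the call in 33, gained it in 7, and changed sign in 13. All changes of sign were in differences that were not called. For *Ireb2* they were -0.21 (P2 against CD324+), -0.25 (P2 against CD31+), and 0.040 (CD31+ against CD324+) with the authors' factors, -0.043 and -0.021 for the first and second of these with at least 10 counts in every library, and, with 1 library left out in turn, values from -0.036 to 0.11, -0.045 to 0.33, and -0.29 to 0.10. For P2 against CD31+, *Slc40a1* was at -0.085 with the authors' factors, and *Ftl1* at 0.0017 without the low count filter and from -0.13 to 0.094 with 1 library left out. Among the further iron genes named by the rule, 39 refits lost a call and 1 changed sign. *Aco1* went to -0.16 (P2 against CD31+) with the authors' factors, where the shift of all genes by -0.37 is larger than its difference. Its level was 46.5 ± 1.31 CPM in P2 and 40.3 ± 2.02 in CD31+ cells, against 180 ± 3.34 in CD324+ cells.

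Of the counts of members called, those lower in P2 than in CD324+ cells fell to 2 with all 12 libraries in 1 fit, and those lower in P2 than in CD31+ cells rose to 1 with the authors' factors. At E18.5 the lower members fell to 1 with the authors' factors, and the higher members to 1 with the replicate block and with all 12 libraries in 1 fit, and ranged from 1 to 3 with 1 library left out. The cause was not tested.

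Libraries that share a replicate number deviated together weakly, with positive correlations from 0.010 to 0.17 (means 0.049, 0.10, 0.10, and 0.052 in the order of the comparisons). The numbers were not taken to pair them, although 4, 6, 5, and 3 of 6 libraries were closest to their own number, a hint of pairing from the data. The replicate block changed no call of a member other than *Ireb2* at E18.5.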

Other observations

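Of 11 genes that recover iron from heme and hemoglobin, all tested, 4 were higher and 6 lower in P2 than in CD324+ cells, where 33.8% of all genes were higher and 36.1% lower. *Mfsd7b*, the symbol in these data for the heme exporter Flvcr1, was at 45.0 ± 2.64 CPM in P2, 10.9 ± 0.858 in CD324+, and 20.1 ± 3.56 in CD31+ cells (P2 against CD324+, log2 2.04, adjusted p = 3.80e-07 by edgeR's quasi-likelihood test). *Blvrb* (biliverdin reductase B) was at 239 ± 13.8, 74.0 ± 21.2, and 44.0 ± 9.001 CPM (log2 1.69, adjusted p = 3.20e-05). The plasma scavengers *Hpx* (hemopexin) and *Hp* (haptoglobin) were highest in CD324+ cells, with *Hpx* at 494 ± 41.5 CPM against 4.40 ± 0.100 in P2 and 5.20 ± 0.362 in CD31+ cells. *Hmox1*, the heme oxygenase that releases iron from heme, was highest in CD31+ cells at 151 ± 47.2 CPM, against 49.4 ± 16.0 in CD324+ (log2 1.61, adjusted p = 0.00865) and 5.99 ± 4.16 in P2 cells (P2 against CD31+, log2 -4.65, adjusted p = 1.33e-05).

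In P2 against CD31+ cells 4 of the 11 were higher and 5 lower (4 lower without P2 replicate 2; all genes: 34.3% and 39.4%), and in CD31+ against CD324+ cells 3 were higher and 6 lower (31.7% and 34%). At E18.5 4 were higher and 4 lower than at E14.5 (5 lower without E18.5 replicate 1; all genes: 35.9% and 33.5%). *Hp* was among the higher at 193 ± 64.5 against 30.6 ± 2.66 CPM (log2 2.66, adjusted p = 0.000147; without replicate 1, log2 2.87, adjusted p = 3.92e-07).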
